A study of Mus musculus with 6 samples.

Results

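The 10 genes described here encode the cytokines of the interleukin-1 (IL-1) and interleukin-18 (IL-18) systems, their receptors and the proteins that hold them back. They are the ligands Il1a, Il1b and Il18, the receptor chains Il1r1, Il1rap and Il18rap, and the antagonists, decoys and inhibitors Il1rn, Il1r2, Il18bp and Sigirr. They were taken by symbol from tables of 23935 gene symbols, and all 10 symbols were found. The libraries hold RNA of bone marrow-derived macrophages (BMDMs), which differentiate from cultured bone marrow in the growth factor M-CSF, here for 7 days. All cultures were then primed for 16 h with 10 ng/mL LPS, a component of the bacterial outer membrane, and 25 ng/mL IFN-γ, the interferon made by T and NK cells. PKM2ΔMAC mice carried floxed Pkm alleles together with LysM-Cre, a Cre recombinase in the Lyz2 locus that acts in macrophages and in other myeloid cells such as neutrophils. PKM2FL/FL littermates carried the floxed alleles without Cre. There were 3 libraries of each genotype and none of unprimed cells, so that the effect of priming itself could not be measured. The study names male mice for BMDMs of these genotypes in another assay, and the sources used here do not tie an age or sex to these libraries. The labels number the mice within each genotype, and p-values below measure the spread between these libraries.

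IL-1α and IL-1β signal through IL-1R1, which pairs with the accessory chain encoded by Il1rap and then recruits MyD88. IL-1β and IL-18 are made as inactive precursors that caspase-1 cleaves inside inflammasomes, so that the RNA level of either gene is not a measure of the secreted cytokine. In macrophages, LPS is known to raise Il1b RNA strongly, while Il18 RNA is commonly present at rest and IL-18 acts together with IL-12 to raise IFN-γ in T and NK cells.

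Total counts were between 49957449 and 54524651 per library. Levels are given in CPM, which are counts divided by the TMM-scaled total of their library. PKM2FL/FL replicates 1, 2 and 3 had 1714, 1698 and 1706 CPM of Pkm, while PKM2ΔMAC replicates 1, 2 and 3 had 987, 1212 and 1005 CPM. Pkm was thus lower in each PKM2ΔMAC library, at 62.6% of the control mean (log2 fold change -0.68, SE 0.08, adjusted p = 0.00913 in edgeR's quasi-likelihood test). Its isoforms are counted together. The call of Pkm was lost when PKM2FL/FL replicate 1, 2 or 3 was left out (adjusted p = 0.0761, 0.0754 and 0.0993 in edgeR's test) and with limma on log2 TPM (0.118 to 0.156), while the log2 fold change stayed at -0.61 to -0.68 under these settings. Lyz2, the locus that holds the Cre, fell from 17825 ± 860 to 28.4 ± 3.8 CPM (SD, n = 3 each, adjusted p = 8.53e-09 in edgeR's test). All 8 macrophage markers were present, with a summed level of 7137 to 7396 CPM in PKM2FL/FL and 7149 to 8066 CPM in PKM2ΔMAC. Of these, 3 of the 8 had the higher mean in PKM2ΔMAC. Itgam was called, at 193 to 198 and 253 to 272 CPM, and Adgre1 did not overlap, at 1666 to 1726 and 1884 to 2236 CPM. Several markers of the priming were low. Nos2 had between 2 and 26 counts, Il12b between 2 and 6 and Il6 between 7 and 18 in any library, while Irf1, the most abundant, was at 53.6 to 56.8 CPM in PKM2FL/FL and 54.0 to 55.2 CPM in PKM2ΔMAC. Of the 12 priming markers, 6 had the higher mean in PKM2ΔMAC and 0 of the 11 tested were called. Tnf (10.96 to 11.55 and 12.03 to 19.5 CPM), Acod1 (3.39 to 4.27 and 1.63 to 3.02 CPM) and Ccl5 (2.73 to 3.95 and 1.69 to 2.70 CPM) did not overlap between the genotypes. Stromal markers were abundant in both genotypes, with Col1a1 at 2170 and 2563 CPM beside 3284 and 3259 CPM for Csf1r, the M-CSF receptor. The sums of the 7 stromal markers overlapped, at 5062 to 5646 and 5065 to 6378 CPM, 6 of the 7 had the higher mean in PKM2ΔMAC, 0 were called, and Pdgfrb did not overlap, at 127 to 133 and 148 to 155 CPM. Neutrophil markers summed to 20.5, 35.3 and 50.3 CPM in PKM2FL/FL and to 123, 90.8 and 171 CPM in PKM2ΔMAC, without overlap, and 9 of the 10 in the table had the higher mean in PKM2ΔMAC. None of the 9 tested was called, and S100a8, S100a9, Ngp, Ltf and Camp did not overlap between the genotypes, while the other 5 did. Over all tested genes, 17.2% did not overlap between the genotypes, beside which the markers named here as not overlapping are to be read. T and NK cell markers summed to at most 1.33 CPM in any library, with Cd3e at 0 to 6 counts, and dendritic cell markers to at most 4.37 CPM. B cell markers summed to 39.4 to 50.8 CPM in PKM2FL/FL and 42.4 to 55.2 CPM in PKM2ΔMAC, nearly all from Ebf1, and mast cell and basophil markers to 8.13 to 8.97 and 6.67 to 11.2 CPM. In bulk RNA such as this, fewer cells of a type and less RNA per cell cannot be told apart.

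Of the 10 genes, Il18, which encodes IL-18, was the gene called as different between the genotypes, with a mean 2.44 times as high in PKM2ΔMAC. The other 8 that could be tested did not pass the threshold, and Il1r2 had too few reads to be tested. A gene was called where the Benjamini-Hochberg adjusted p of edgeR's quasi-likelihood test was under 0.05 over the 16516 genes that passed the filter on low counts. By this rule 1 of the 9 tested genes was called, where 0.412% of all tested genes were called, and the gene called was higher in PKM2ΔMAC, as were 0.285% of all tested genes. The median log2 fold change of the 9 genes was 0.16, beside -0.00021 over all tested genes. The 10 genes were chosen with earlier results of these data known, so these shares and medians are a description only.

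**Figure D1:**
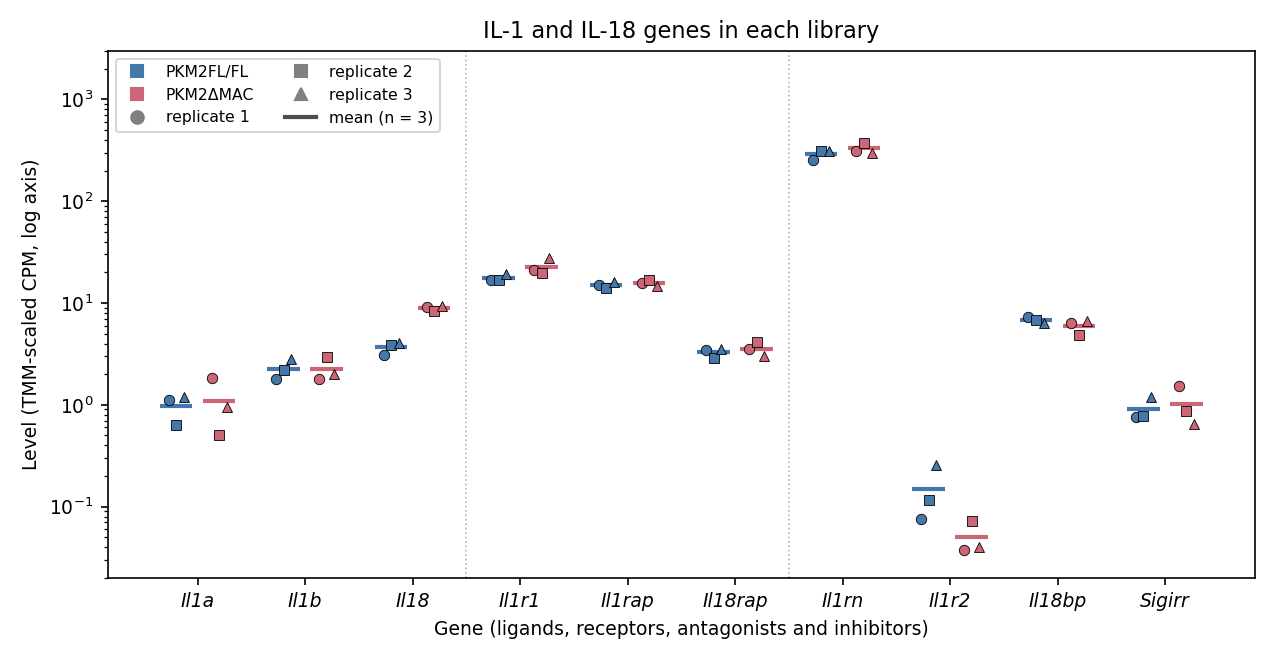
Level of each of the 10 genes in each library, in TMM-scaled CPM on a log axis, with ligands on the left, receptor chains in the middle and antagonists, decoys and inhibitors on the right. Points are single libraries, blue for PKM2FL/FL and red for PKM2ΔMAC, and lines are means of 3. Points of Il18 stand apart between the genotypes, at 3.09 to 4.02 and 8.32 to 9.37 CPM, whereas those of Il1b overlap.

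Il18 (ENSMUSG00000039217, chromosome 9 of GRCm38, 50554827 to 50581840, plus strand) encodes the precursor of IL-18. PKM2FL/FL replicates 1, 2 and 3 expressed Il18 at 3.09, 3.87 and 4.02 CPM, and PKM2ΔMAC replicates 1, 2 and 3 at 9.08, 8.32 and 9.37 CPM. The lowest PKM2ΔMAC library was thus above the highest PKM2FL/FL library, and the 3 libraries of each genotype lay close together. The means were 3.66 ± 0.50 and 8.92 ± 0.54 CPM (SD, n = 3 each), a ratio of 2.44. These levels rest on 165 to 204 counts per PKM2FL/FL library and 457 to 482 counts per PKM2ΔMAC library. The log2 fold change was 1.29 (SE 0.13, 95% interval 0.99 to 1.58), with an adjusted p of 0.00445 in edgeR's test, and Il18 ranked 22 by p among all tested genes. An exact permutation test of the 6 libraries, two-sided, gave p = 0.10, which is the smallest that 3 libraries against 3 allow. The summed level of neutrophil markers was higher in the same 3 libraries, with 0 of them called singly, and their part in the Il18 result was not tested.

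Il1b (ENSMUSG00000027398, chromosome 2 of GRCm38, 129364570 to 129371139, minus strand) encodes the precursor of IL-1β. In PKM2FL/FL replicates 1 to 3 Il1b was at 1.78, 2.19 and 2.80 CPM, from 95 to 142 counts, and in PKM2ΔMAC replicates 1 to 3 at 1.79, 2.95 and 1.99 CPM, from 95 to 162 counts. The genotypes overlapped over nearly their whole range, and the highest library was PKM2ΔMAC replicate 2. The means were 2.26 ± 0.51 and 2.24 ± 0.62 CPM (SD, n = 3 each). The log2 fold change was -0.0047 (SE 0.25), with a 95% interval of -0.58 to 0.57 (adjusted p = 0.998 in edgeR's test). These data thus did not show a difference in Il1b in either direction, and the interval leaves room for one of about that size. Of the priming markers, Nos2, Il12b and Il6 had at most 26, 6 and 18 counts in any library. Irf1 was the most abundant, at 53.6 to 56.8 CPM in PKM2FL/FL and 54.0 to 55.2 CPM in PKM2ΔMAC. Without unprimed cells, how far Il1b was induced in these cultures was not tested. Il1b shares 25 of its 1907 exon bases with Il1bos on the opposite strand.

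Il1a (ENSMUSG00000027399, chromosome 2, 129299610 to 129309972, minus strand) encodes IL-1α, which is active without cleavage by caspase-1. It was measured at 1.11, 0.635 and 1.18 CPM in PKM2FL/FL and at 1.85, 0.510 and 0.947 CPM in PKM2ΔMAC. PKM2ΔMAC replicate 1 was the highest and PKM2ΔMAC replicate 2 the lowest of the 6 libraries. Their counts of 98 and 28 give 95% counting intervals of 1.499 to 2.25 and 0.339 to 0.737 CPM that do not overlap, which cover counting error only. The spread among the PKM2ΔMAC libraries was 4.70 times that of counting alone for Il1a. The log2 fold change was 0.18 with a wide interval of -0.91 to 1.26 (SE 0.47, adjusted p = 0.941 in edgeR's test). Il1a shares 222 of its 1974 exon bases with Gm14023 on the opposite strand, whose mean was 7.33 counts, and whether the counting used strand is not given in the sources used here.

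The sequences below show the start regions of the called ligand Il18, of Il1b and of Il1rn, the most abundant of the 10 genes. They are RefSeq promoters of GRCm38.p6, from 250 bases before to 50 bases after the start site, 5′ to 3′ on the strand of the gene. Il18 is at chr9:50554450-50554749 on the plus strand and Il1b at chr2:129371090-129371389 on the minus strand. Il1rn start A is at chr2:24336610-24336909 and start B at chr2:24345121-24345420, both on the plus strand. RefSeq places the start of Il18 upstream of the span given above, and the Il18 window ends before that span. The motif result of Il18 thus rests on the RefSeq start. Capitals mark matches on either strand to the NF-kB motif, which is GGG and CC with any 5 bases between them, or to the AP-1 motif TGANTCA.
Il18: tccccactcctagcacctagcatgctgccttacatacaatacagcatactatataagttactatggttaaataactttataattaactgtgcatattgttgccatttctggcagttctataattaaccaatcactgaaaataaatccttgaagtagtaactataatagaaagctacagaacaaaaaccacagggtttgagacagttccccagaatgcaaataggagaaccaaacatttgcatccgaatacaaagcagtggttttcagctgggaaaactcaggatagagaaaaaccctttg
Il1b: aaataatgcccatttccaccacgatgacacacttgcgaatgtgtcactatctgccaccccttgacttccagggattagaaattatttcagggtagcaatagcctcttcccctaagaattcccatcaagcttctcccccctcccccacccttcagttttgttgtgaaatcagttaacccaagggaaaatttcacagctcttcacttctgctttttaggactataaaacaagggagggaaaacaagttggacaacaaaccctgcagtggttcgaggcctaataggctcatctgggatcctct
Il1rn start A: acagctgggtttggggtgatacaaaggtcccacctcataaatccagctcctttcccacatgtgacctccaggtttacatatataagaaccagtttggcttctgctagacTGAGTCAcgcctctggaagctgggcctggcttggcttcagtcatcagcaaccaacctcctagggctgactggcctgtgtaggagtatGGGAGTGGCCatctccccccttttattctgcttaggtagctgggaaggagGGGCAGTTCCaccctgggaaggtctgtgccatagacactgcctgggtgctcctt
Il1rn start B: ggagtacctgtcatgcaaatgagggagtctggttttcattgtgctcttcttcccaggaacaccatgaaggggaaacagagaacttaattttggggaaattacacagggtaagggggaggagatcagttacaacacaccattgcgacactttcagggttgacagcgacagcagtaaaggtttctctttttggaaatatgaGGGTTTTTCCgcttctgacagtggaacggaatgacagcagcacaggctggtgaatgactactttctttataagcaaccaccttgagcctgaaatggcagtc
Neither the Il18 nor the Il1b window held any of 5 motifs searched on both strands, which were NF-kB (as above), GAS (TTCNNNGAA), the ISRE core (GAAA and again GAAA with any 2 bases between them), AP-1 (TGANTCA) and the core of the HIF response element (ACGTG). Start A of Il1rn held an AP-1 match at -141 and NF-kB matches at -54 and -4, and start B held an NF-kB match at -51, counted from the first transcribed base as 0. NF-kB letters this loose occur in 50.8% of the 32851 RefSeq promoters, against 8.30% for GAS, 3.44% for the ISRE core, 7.81% for AP-1 and 19.6% for ACGTG. Among 12 windows of 9 of the 10 genes, NF-kB was found in 5, GAS in 1, the ISRE core in 1, AP-1 in 2 and ACGTG in 3. An NF-kB match of Il1rn lies in overlapping windows of start B and of a start just upstream and is counted in both. A match is a run of letters and not a measured site. The counts per gene do not separate transcripts from different starts.

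Among the receptor chains, none was called. Il1r1 (ENSMUSG00000026072, chromosome 1, 40225080 to 40317257, plus strand) encodes the signalling receptor of IL-1α and IL-1β. PKM2FL/FL libraries had 16.8, 16.8 and 19.3 CPM of Il1r1 and PKM2ΔMAC libraries 20.9, 19.9 and 27.7 CPM. The genotypes did not overlap, but the lowest PKM2ΔMAC library and the highest PKM2FL/FL library were close, and PKM2ΔMAC replicate 3 stood highest. The log2 fold change was 0.37 (SE 0.13, 95% interval 0.07 to 0.68), with an unadjusted p of 0.0232 and an adjusted p of 0.414 in edgeR's test. Leaving out PKM2ΔMAC replicate 3 gave 0.21, and leaving out PKM2ΔMAC replicate 2 gave 0.46. Of the 7 stromal markers, 6 also had the higher mean in PKM2ΔMAC, with overlapping sums and 0 called. Their part in the Il1r1 values was not tested. Of the 9 tested genes 2 had an unadjusted p under 0.05, Il18 and Il1r1, and 9.83% of all tested genes did.

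Il1rap (ENSMUSG00000022514, chromosome 16, 26581704 to 26730117, plus strand) encodes the accessory chain shared by IL-1R1 and other receptors of the family. It was at 14.9, 14.0 and 15.9 CPM in PKM2FL/FL and at 15.6, 17.0 and 14.7 CPM in PKM2ΔMAC. The genotypes overlapped, with a log2 fold change of 0.08 (SE 0.08, 95% interval -0.11 to 0.27, adjusted p = 0.813 in edgeR's test), the narrowest interval of the 9 genes. Leaving out single libraries gave Il1rap values of 0.026 (PKM2ΔMAC replicate 2) to 0.13 (PKM2FL/FL replicate 3). Il1rap shares 552 of its 11360 exon bases with Gm20319 on the opposite strand. Il18rap (ENSMUSG00000026068, chromosome 1, 40515362 to 40551705, plus strand) encodes the accessory chain of the IL-18 receptor. It was at 3.45, 2.89 and 3.54 CPM in PKM2FL/FL and at 3.56, 4.12 and 3.02 CPM in PKM2ΔMAC, again overlapping, with a log2 fold change of 0.12 (SE 0.17, 95% interval -0.26 to 0.50, adjusted p = 0.872 in edgeR's test). For Il18rap these values ran from 0.0023 without PKM2ΔMAC replicate 2 to 0.22 without PKM2ΔMAC replicate 3. Il18r1, the ligand-binding chain that Il18rap completes, was near the limit of detection, at 0.255 and 0.252 CPM on average (log2 fold change -0.03, SE 0.56), and was named after its values were seen.

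Among the antagonists and inhibitors, none was called either. Il1rn (ENSMUSG00000026981, chromosome 2, 24336853 to 24351494, plus strand) encodes IL-1Ra, which occupies IL-1R1 without signalling. It was expressed at 251, 308 and 310 CPM in PKM2FL/FL and at 314, 376 and 300 CPM in PKM2ΔMAC. PKM2ΔMAC replicate 2 was the highest and PKM2FL/FL replicate 1 the lowest, while PKM2ΔMAC replicate 3 lay below 2 of the PKM2FL/FL libraries. The log2 fold change of Il1rn was 0.19 (SE 0.12, 95% interval -0.09 to 0.47, adjusted p = 0.668 in edgeR's test). It was 0.083 without PKM2ΔMAC replicate 2 and 0.092 without PKM2FL/FL replicate 1. With at least 13405 counts per library for Il1rn, counting error is small beside the spread between libraries.

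Il18bp (ENSMUSG00000070427, chromosome 7, 102014885 to 102018690, minus strand) encodes a secreted protein that binds IL-18 and keeps it from its receptor. It was at 7.25, 6.75 and 6.40 CPM in PKM2FL/FL and at 6.41, 4.81 and 6.71 CPM in PKM2ΔMAC. The genotypes overlapped, with PKM2ΔMAC replicate 2 the lowest, and the log2 fold change of -0.19 (SE 0.14, 95% interval -0.51 to 0.14, adjusted p = 0.736 in edgeR's test) was the lowest of the 9 genes with all libraries. Without PKM2ΔMAC replicate 2 it was -0.051 for Il18bp, and Il1b was lower. Il18bp shares 80 of its 3026 exon bases with Numa1 on the opposite strand, whose mean was 15432 counts, so that its level is uncertain if the counting did not use strand. Sigirr (ENSMUSG00000025494, chromosome 7, 141091175 to 141100572, minus strand) encodes a receptor-like inhibitor of IL-1 and Toll-like receptor signalling. It was at 0.768, 0.770 and 1.20 CPM in PKM2FL/FL and at 1.53, 0.874 and 0.645 CPM in PKM2ΔMAC, where 1 library was the highest of all and another the lowest (log2 fold change 0.16, SE 0.36, 95% interval -0.68 to 0.99, adjusted p = 0.932 in edgeR's test).

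Il1r2 (ENSMUSG00000026073, chromosome 1, 40074079 to 40125231, plus strand) encodes the decoy receptor that binds IL-1 without signalling. It had 4, 6 and 13 counts in PKM2FL/FL and 2, 4 and 2 counts in PKM2ΔMAC, and did not pass the filter on low counts. PKM2FL/FL replicate 1 and PKM2ΔMAC replicate 2 tied in counts, and the genotypes separated in CPM only through the scaling, at 0.0749 and 0.0728. The 95% counting intervals of these libraries ran from 0.0204 to 0.192 and from 0.0198 to 0.186 CPM. Counts this low did not settle whether Il1r2 differed between the genotypes. Of the 9 tested genes, 2 had genotypes that did not overlap in CPM, Il18 and Il1r1, while 17.2% of all tested genes did not overlap.

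**Figure D2:**
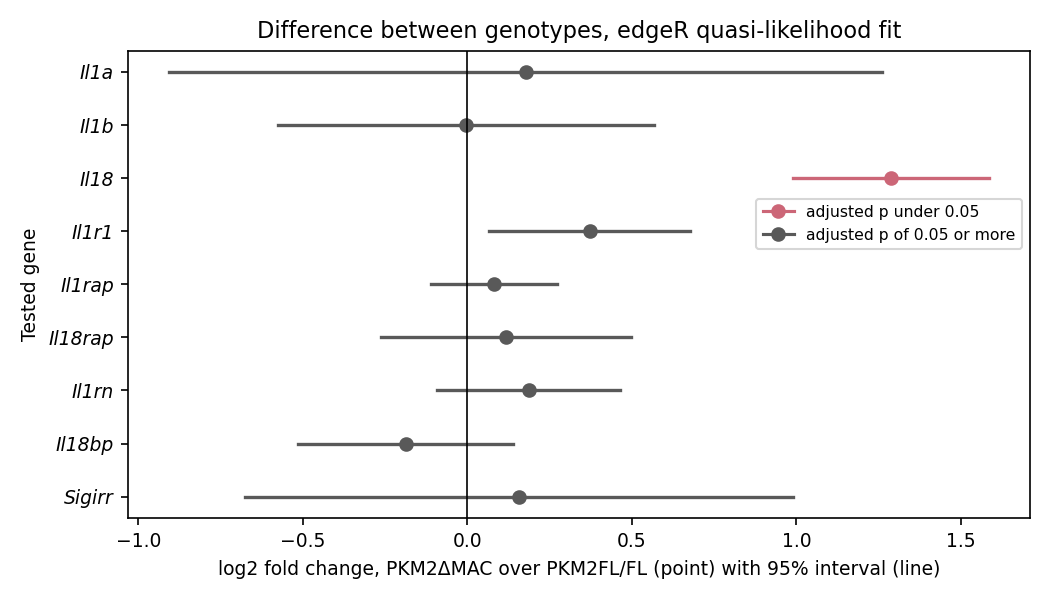
Difference between the genotypes for the 9 tested genes. Points are log2 fold changes of PKM2ΔMAC over PKM2FL/FL from edgeR's quasi-likelihood fit and lines their 95% intervals. The interval of Il18, 0.99 to 1.58, lies wholly above those of the other genes except Il1a and Sigirr, whose wide intervals reach 1.26 and 0.99, and Il18 is the gene with an adjusted p under 0.05.

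The libraries did not move the 10 genes together. PKM2ΔMAC replicate 2 was the highest of the 6 libraries for Il1b, Il1rn, Il1rap and Il18rap and the lowest for Il1a and Il18bp. It was also the library furthest from the others of its genotype. Its chi-square over all genes, divided by the degrees of freedom, was 47.6 and 59.6 against the other PKM2ΔMAC libraries, beside 8.10 to 14.9 for other pairs of the same genotype. For Il18 it lay at 8.32 CPM, the lowest of its genotype and still above every PKM2FL/FL library. Exact permutation gave its smallest possible p of 0.10 for Il18, Il1r1 and Il1r2, and larger values for the other 7 genes. Without PKM2ΔMAC replicate 2, the log2 fold change of Il18 was 1.34 and its adjusted p 0.000507 in edgeR's test.

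Levels of different genes were compared per transcript length, in TPM. In PKM2FL/FL the order was Il1rn at a mean of 183 TPM, Il18 at 12.4, Il1r1 at 9.69, Il18bp at 7.87, Il1rap at 4.59, Il1b at 4.14, Il1a at 1.72, Il18rap at 1.71, Sigirr at 1.05 and Il1r2 at 0.273 TPM. The ranges of Il18 and Il1r1, of Il1rap and Il1b, and of Il1a and Il18rap overlapped, so that these neighbours were not separated by their spread. In PKM2ΔMAC the order was the same, with Il1rn at 219.9 TPM, Il18 at 31.8, Il1r1 at 13.2, Il18bp at 7.24, Il1rap at 5.12, Il1b at 4.36, Il1a at 2.04, Il18rap at 1.95, Sigirr at 1.23 and Il1r2 at 0.0978 TPM. Here Il18 no longer overlapped with Il1r1, while Il1rap and Il1b, Il1a and Il18rap, and Il18rap and Sigirr did. In both genotypes the RNA of the IL-1 antagonist Il1rn was thus far above that of either IL-1 ligand.

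Ratios within a library set ligand against antagonist. The ratio of Il18 to Il18bp TPM was 1.25, 1.68 and 1.84 in PKM2FL/FL and 4.16, 5.08 and 4.10 in PKM2ΔMAC. Each PKM2ΔMAC library had the higher ratio, with means of 1.59 ± 0.31 and 4.45 ± 0.55 (SD, n = 3 each), a mean difference of 1.49 on the log2 scale. The called gene Il18 itself enters this ratio, and Il18bp had the lower mean in PKM2ΔMAC. The ratio of Il1rn to Il1b TPM was 48.6, 48.4 and 38.3 in PKM2FL/FL and 60.4, 43.9 and 51.8 in PKM2ΔMAC. These overlapped, at 45.1 ± 5.92 and 52.0 ± 8.24 (SD, n = 3 each). The ratio of the decoy Il1r2 to Il1r1 TPM was 0.0149 to 0.0442 in PKM2FL/FL and 0.00486 to 0.0122 in PKM2ΔMAC, and rests on 2 to 13 counts of Il1r2 per library. Ratios of RNA levels are not ratios of protein.

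**Figure D3:**
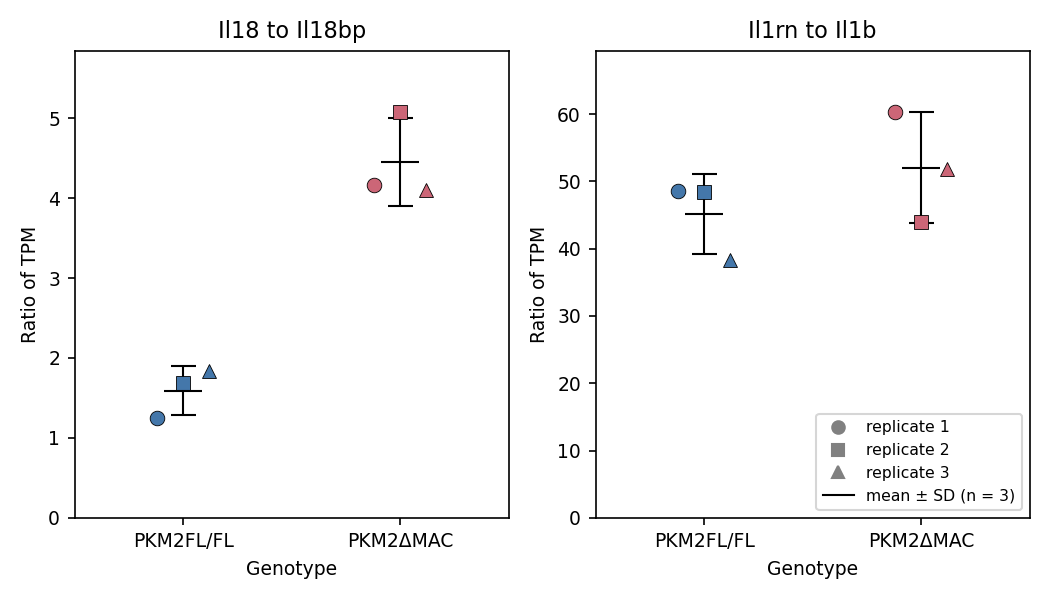
Ratio of TPM within each library, Il18 to Il18bp on the left and Il1rn to Il1b on the right. Points are single libraries and bars the mean and SD of 3. For Il18 to Il18bp the PKM2ΔMAC libraries, at 4.10 to 5.08, lie above the PKM2FL/FL libraries at 1.25 to 1.84, and for Il1rn to Il1b the genotypes overlap.

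Other genes of the pathway were taken from lists written from general knowledge. Of 15 genes for the processing and release of these cytokines, all were tested and 0 were called, and the median log2 fold change was -0.047 with a smallest adjusted p of 0.246 in edgeR's test. At an unadjusted p under 0.05, 1 of the 15 was higher and 2 were lower, beside 9.83% of all tested genes in either direction. The smallest adjusted p was that of P2rx7, the ATP-gated channel upstream of the NLRP3 inflammasome, at 107 ± 1.76 and 96.9 ± 2.51 CPM (SD, n = 3 each), with a log2 fold change of -0.14. Casp1, the caspase that cleaves both precursors, was at 73.8 and 74.9 CPM on average, with a log2 fold change of 0.02 (SE 0.05). Pycard, the inflammasome adaptor, was at 30.1 and 30.3 CPM and Gsdmd, which forms the pores through which the cytokines leave, at 75.4 and 74.3 CPM. The 2 genes of this list with the largest absolute log2 fold change were Gsdme, another pore-forming gasdermin, at 10.1 ± 0.32 and 13.0 ± 2.21 CPM (log2 fold change 0.37, SE 0.12, adjusted p = 0.378 in edgeR's test), and Ninj1, which acts in the rupture of the plasma membrane, at 279 ± 18.9 and 252 ± 5.27 CPM (-0.15, adjusted p = 0.406). Neither was called. Casp1, Pycard, Gsdmd and P2rx7 were named after their values were seen.

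Of 20 genes of receptor signalling, 0 were called, and the median log2 fold change was 0.0015 with a smallest adjusted p of 0.111 in edgeR's test. At an unadjusted p under 0.05, 1 of the 20 was higher and 2 were lower, beside 9.83% of all tested genes. The libraries of the genotypes did not overlap for 1 higher and 4 lower genes, beside 17.2% of all tested genes. The 4 lower genes were Peli2, Traf6, Rela and Ikbkb, which were named after their values were seen. Peli2, a Pellino ubiquitin ligase, was at 82.3 ± 2.07 and 71.5 ± 4.00 CPM (log2 fold change -0.20, adjusted p = 0.213 in edgeR's test). The log2 fold changes of Traf6, Rela and Ikbkb were -0.13, -0.07 and -0.06. The smallest adjusted p was that of Nfkbiz, an atypical IκB protein that IL-1 and LPS induce, at 66.2, 70.3 and 60.2 CPM in PKM2FL/FL and 97.9, 101.8 and 82.0 CPM in PKM2ΔMAC. The genotypes did not overlap for Nfkbiz, and its log2 fold change was 0.52 (SE 0.09). Nfkbiz was called under some other settings, with an adjusted p of 5.22e-05 in DESeq2 and, in edgeR's test, 0.00285 with the replicate number as a block and 0.00756 without PKM2ΔMAC replicate 3. Irak3, a kinase homologue that restrains MyD88 signalling, was at 41.3 ± 2.65 and 50.2 ± 9.44 CPM (log2 fold change 0.28, adjusted p = 0.560 in edgeR's test). Of 11 other genes of the IL-1 family, 6 were in the table, 3 were tested and 0 were called. Il1rl1, the IL-33 receptor, was at 2.56 and 2.52 CPM and Il1rl2, the IL-36 receptor, at 7.76 and 7.87 CPM on average.

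Il18 lies on chromosome 9, as does Pkm, whose start is 9.10 Mb away, and other called genes lay near it. Among tested genes with a mean of at least 1 CPM, 4 of the 14 others that start within 1 Mb of the start of Il18 were called (28.6%), where 0.466% of all such genes were. They were Pts, a tetrahydrobiopterin synthesis enzyme (log2 fold change -0.55, adjusted p = 0.0353 in edgeR's test), Dixdc1, a Wnt pathway protein (1.11, adjusted p = 0.0353), Ppp2r1b, a scaffold subunit of protein phosphatase 2A (1.24, adjusted p = 1.9e-05) and Sik2, a salt-inducible kinase (0.52, adjusted p = 0.00500). Pts was thus lower and the other 3 higher in PKM2ΔMAC, and the median over the 14 genes was 0.051. Bco2, a carotenoid oxygenase whose span overlaps the start of Il18 on the opposite strand, was at 1.17 and 2.33 CPM (log2 fold change 0.99, SE 0.19, adjusted p = 0.109 in edgeR's test), and the genes share no exon bases. Sdhd, Timm8b, Nkapd1 and Dlat, which lie between Il18 and Dixdc1, had log2 fold changes of -0.08 to 0.11 and were also named after their values were seen.

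Within 10 Mb on either side, 13 of 150 such genes were called (8.67%), and the median log2 fold change of the 150 was -0.02. Besides those already given, Cadm1 (1.51) and Rbm7 (0.25) were higher in PKM2ΔMAC. Nxpe1-ps (-6.06), Bace1 (-0.51), Gm16536 (-0.72), Pstpip1 (-1.11), Cd276 (-0.93), Pkm (-0.68) and Gm49759, which overlaps Pkm (-1.12), were lower. Called genes of either direction thus flanked Il18 on both sides. The Cre, the lower Lyz2 and the lower Pkm go together in all 6 libraries, so that their effects on Il18 cannot be told apart, and whether the difference in Il18 is tied to its place on chromosome 9 was not tested.

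**Figure D4:**
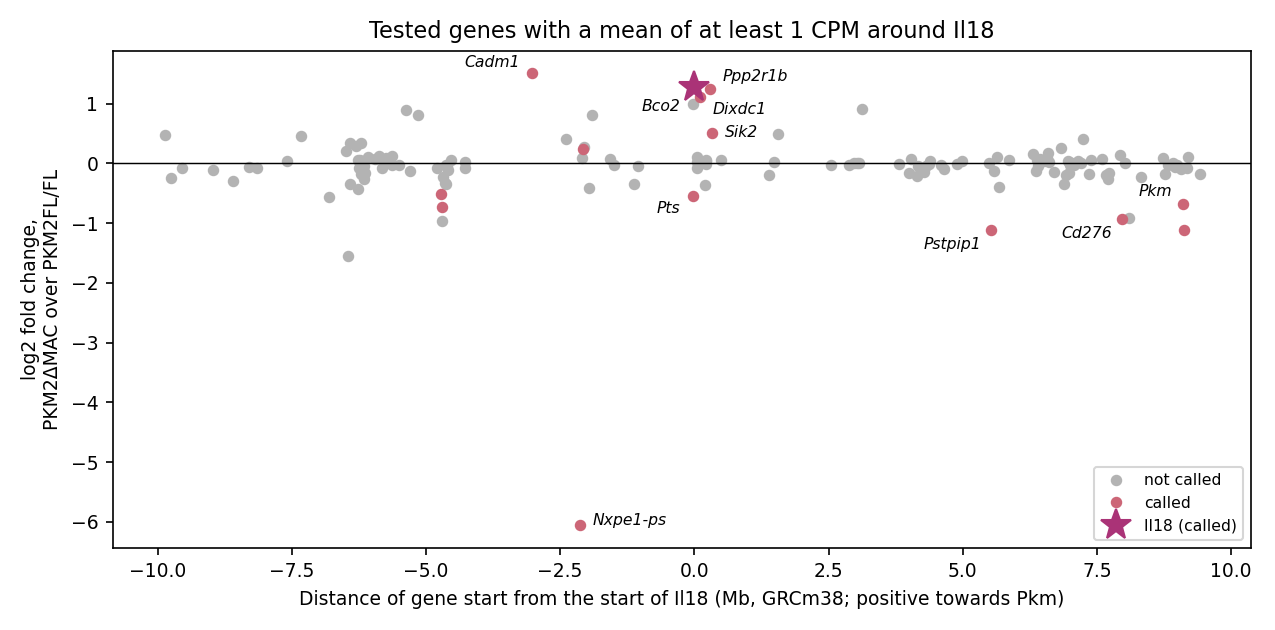
Log2 fold change of PKM2ΔMAC over PKM2FL/FL for tested genes with a mean of at least 1 CPM, by the distance of the gene's start from the start of Il18 in Mb, with Pkm on the positive side. Called genes are red, other genes grey, and Il18 is a star. Il18, Dixdc1, Ppp2r1b and Sik2 lie together above 0, Pts lies below 0 beside them, and most other genes lie near 0.

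The genes whose pattern over the 6 libraries was most like that of Il18, of 13076 genes ranked by Pearson's r of log2 CPM, were Sertad2 (r = 0.997), Bco2 (0.991) and Acly (0.991). Their log2 fold changes were 0.16, 0.99 and 0.06, and none of the 3 was called. With 6 libraries in 2 genotypes, a gene that separates the genotypes cleanly can have a high r whatever the size of its difference, and r is given as a description.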

How the data were processed

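RNA-seq libraries of BMDMs from 3 PKM2ΔMAC and 3 PKM2FL/FL mice were used. Per the labels, total RNA libraries were made with a SMARTer kit, and the submitters' processing notes name FastQC 0.12.1, Trim Galore 0.6.10, HISAT2 2.2.1, SAMtools 1.19.2 and Subread 2.0.6 with mm10. For each gene symbol the authors deposited raw counts, without normalization, and TPM values, which divide by transcript length. The annotation and strand setting of the counting are not given in the sources used here. Column names give the genotype and the number of the mouse, by which they were matched to libraries, and 0 columns stayed unused.

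Counts were compared with edgeR 4.0.16 (R 4.3.3, limma 3.58.1) by the robust quasi-likelihood test on genotype, with TMM factors (0.980 to 1.04), filterByExpr, which kept 16516 of 23935 symbols, and Benjamini-Hochberg adjustment over all of them. The threshold was an adjusted p of 0.05. Single genes were also compared by exact permutation of log2(CPM + 0.1), two-sided. Scripts were tested on simulated data. With totals not scaled by TMM, unlike CPM elsewhere, 3 counts, which a count of 0 still allows, correspond to 0.0550 to 0.0601 CPM. Counting intervals are exact Poisson intervals at 95% and cover counting error only.

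Gene positions are from GENCODE M21 (GRCm38, the same assembly as mm10), and promoters from RefSeq on GRCm38.p6, where 9 of the 10 genes matched. The 10 genes, the gene lists and the marker lists were chosen with earlier results of these data known. Named beside the 10 genes were Pkm and Lyz2, the 2 members of each pathway list with the largest absolute log2 fold change at a mean of at least 1 CPM, the 3 genes most like a called gene in pattern, and called genes of at least 1 CPM within 10 Mb of a called gene. Any other gene was named with its values already seen. Other settings tried were limma-trend on log2 TPM (pseudocount 1 or 0.1), DESeq2 1.42.0, normalization by RLE or by the upper quartile, a minimum of 10 counts in each library or no filter at all, counts thinned to the lowest total, non-robust estimation, the replicate number as a block, and leaving out each library.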

Additional observations from a re-analysis of the deposited data

How the results depend on the processing

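Il18 was called under all 17 alternatives run, with a log2 fold change of 1.18 to 1.36 and an adjusted p of 3.84e-15 to 0.0428, the largest without PKM2FL/FL replicate 2, and it was the 1 gene of the 10 called in each. The number of genes called over the whole table moved more. It was 68 in edgeR's test, 302 with DESeq2, 120 with no filter, 41 with log2(TPM + 1), 32 with log2(TPM + 0.1) and 36 with log2(TPM + 1) and no filter. Leaving out single libraries gave 22 to 299, with 26, 27 and 22 without PKM2FL/FL replicates 1 to 3 and 299 without PKM2ΔMAC replicate 2. With the replicate number as a block, 82 genes were called and Il18 had an adjusted p of 0.00829. Same-numbered libraries had correlations of 0.0188 to 0.141 over 3 pairs, and 5 of 6 libraries correlated best with their own number, which the labels do not tie to a shared origin, so the numbers were not treated as pairs.

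The log2 fold change of Il1b was near 0, at -0.0047 in edgeR's test, and its sign was not stable. It was 0.034 with libraries down-sampled and ran from -0.25 to 0.18 when single libraries were left out. With upper-quartile normalization it was 0.0010, with log2(TPM + 1), filtered or not, 0.047, and with log2(TPM + 0.1) 0.055. The median over all genes fitted also moved under these settings. It was 0.0068 with the upper quartile, 0.063 and 0.046 with log2(TPM + 1), filtered and not, and 0.067 with log2(TPM + 0.1). The sign of Il1b under these scalings was therefore not read as a direction. Leaving out single libraries also turned the sign of Il1a (-0.42 to 0.52) and Sigirr (-0.26 to 0.40). None of these genes was called under any alternative, and the cause of the turns in sign was not tested. The genes of the pathway lists called numbered 0 in edgeR's test, 1 with DESeq2 and 1 with the replicate block (Nfkbiz in each), and 0 to 1 when single libraries were left out (Nfkbiz without PKM2ΔMAC replicate 3, Peli2 without PKM2ΔMAC replicate 2). Il1r2 is limited by depth, at 2 to 13 counts per library, and Il1a and Sigirr, at under 100 counts, by counting error and by the spread between libraries. With no filter, edgeR's log2 fold change of Il1r2 was -1.51 (SE 0.92, adjusted p = 0.696).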
